A study of Mus musculus with 6 samples.

Results

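The 100 circular RNAs (circRNAs) with the highest mean signal in mouse RPE-choroid-sclera, a complex of the retinal pigment epithelium (RPE) with the vessel layer and the outer coat of the eye, are described here. They were the 100 highest of 14236 circRNA probes by the mean of the 6 arrays in the authors' deposited value table. The arrays came from male mice. The 3 CNV samples were from eyes with choroidal neovascularization, enucleated 7 days after laser burns around the optic disc, and the 3 control samples were from mice of matched age that received no laser. Each lasered eye received 25 burns of 50 µm, made by 0.1 s pulses from a diode laser of 532 nm and 100 mW. Strain, age and genotype are not given in the sources used here, and neither is whether the samples came from different animals. The p-values therefore reflect the variation among these 6 samples alone, which may include technical variation. RNase R treatment of the RNA preceded random-primed amplification and Cy3 labelling.

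A circRNA forms when a downstream splice donor joins an upstream splice acceptor, which closes 1 or more exons of a host gene into a ring. Without free ends the ring resists exonucleases such as RNase R, which digest most linear RNA, and circRNAs are often long-lived in tissues whose cells divide little, such as neural tissue. In choroidal neovascularization, vessels from the choroid grow through Bruch's membrane toward the RPE, and laser rupture of that membrane is the common mouse model. Host genes, genome positions and probe sequences of these circRNAs were not analysed here, so each is called by its probe identifier. Brightness on an array depends on how well a probe binds as well as on how much RNA is present. The 100 are therefore the circRNAs of highest signal, and their order is an order of brightness and not a measured order of abundance.

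The signal was spread over a steep slope. On the log2 scale of the deposited value table the 100 means ran from 17.29 down to 11.25, while the median over all circRNA probes was 5.92. The limit fell inside a dense stretch: the last of the 100, ASCRP4005425, had a mean of 11.2534 and the next circRNA, ASCRP4013749, one of 11.2508. Within 0.1 log2 units of the limit lay 12 of the 100 and 10 circRNAs outside them. The processed signal of ASCRP4005425, a background-subtracted brightness, was 942, 4716 and 2331 across controls 1 to 3 and 1229, 3853 and 4334 across CNV 1 to 3. That of ASCRP4013749 was 1152, 4172 and 2365 on the controls and 1307, 4971 and 4283 on the CNV arrays. Both circRNAs, on either side of the limit, were among the 100 highest on 4 of the 6 arrays.

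On all 6 arrays each of the 100 was well above background, and 0 of their spots were saturated. The brightest reached 195561 on CNV 3, where the scanner's saturation value was 778266. The dimmest value of any of the 100 on any array was 750, on CNV 1. Their spots lay in all parts of the array grid, with 25, 31, 25 and 19 in 4 equal blocks of it, and the median local background around them was 13 to 15, against 13 to 14 around the other circRNA probes.

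The arrays differed in overall brightness, which was removed by scaling before the groups were compared. The 75th percentile of the processed signal over all probes other than array controls was 77.2, 108 and 103 across controls 1 to 3 and 77.8, 123 and 129 across CNV 1 to 3. Control 1 and CNV 1 were the dimmest arrays and also the most alike, and the results that rest on them are given with and without them below. Of 26 genes set as markers of RPE, melanocytes, choroidal endothelium, sclera, photoreceptors and macrophages, Tyr, the tyrosinase of melanin synthesis, had 1 of the array's 50 mRNA probes. Of its 10 spots per array, 40%, 30% and 60% were well above background across controls 1 to 3 and 30%, 100% and 100% across CNV 1 to 3. After scaling, the log2 signal of Tyr was -3.78, -4.53 and -4.24 on the controls and -4.02, -3.12 and -3.43 on the CNV arrays, which is low. With 1 gene at this level, in RNA treated with RNase R, the labelled tissue could not be checked. In whole tissue, fewer cells of a type and less RNA per cell cannot be told apart.

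The 100 circRNAs held nearly equal shares of the circRNA signal on the 6 arrays. Their part of the summed processed signal of all circRNA probes was 47.1%, 47.9% and 44.0% across controls 1 to 3 and 47.1%, 46.2% and 47.3% across CNV 1 to 3. The lowest share was on control 3 and the highest on control 2, and the CNV values lay between them. The mean was 46.3% ± 2.1 (SD, n = 3) for the control arrays and 46.9% ± 0.61 (SD, n = 3) for the CNV arrays, so the difference of 0.57 percentage points was smaller than the spread among controls. These shares describe the values by which the 100 were chosen, and no test was made of them. Summed from spot medians without background subtraction, the share ran from 39.9% to 43.8%, in a sum where every spot keeps its background.

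Much of that signal came from very few circRNAs. The brightest alone, ASCRP4004008, held 4.6% to 5.8% of the circRNA signal of an array. The 6 brightest together held 27.4%, 24.2% and 24.9% across controls 1 to 3 and 27.8%, 23.5% and 23.5% across CNV 1 to 3. Control 1 and CNV 1, the dimmest arrays, had the highest of these shares, and whether their low overall signal plays a part was not tested. The 10 brightest held 28.6% to 31.9% and the 50 brightest 39.1% to 42.5%. Between 123 circRNAs, on control 2, and 186, on control 3, sufficed to hold 50% of the circRNA signal of an array.

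The same 6 circRNAs led on nearly every array. ASCRP4004008 had a processed signal of 120272, 168945 and 125820 across controls 1 to 3 and 127880, 159067 and 195561 across CNV 1 to 3. ASCRP4006342 had 113113, 140989 and 127485 on the controls and 112755, 158487 and 170698 on the CNV arrays. ASCRP4006710 had 132005, 146901 and 143385 on the controls and 126576, 161196 and 163796 on the CNV arrays. These 3 circRNAs exchanged ranks 1 to 3 among themselves and never left them. Their order relative to each other changed from array to array in both groups.

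Below them, ASCRP4013042 was at rank 4 and ASCRP4012684 at rank 5 on all 6 arrays. The signal of ASCRP4013042 was 107237, 134382 and 121890 on the controls and 110623, 117477 and 145725 on the CNV arrays. That of ASCRP4012684 was 90603, 101741 and 95195 on the controls and 84182, 105412 and 112707 on the CNV arrays. ASCRP4011502 was at rank 6 on 5 arrays and at rank 7 on control 2, with 57757, 65539 and 62861 on the controls and 52440, 73667 and 99292 on the CNV arrays. The change on control 2 came with the high signal there of ASCRP4007626, which was at 91868 on that array against 32266 and 39760 on controls 1 and 3 and 34466, 46714 and 62696 on the CNV arrays.

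ASCRP4004672 kept to ranks 7 to 9, with 35247, 39363 and 43206 on the controls and 31506, 63125 and 63122 on the CNV arrays. The last of the 10 brightest ranged more widely. ASCRP4008132 had 24192, 26667 and 12208 on the controls and 14164, 31839 and 42402 on the CNV arrays, and ranks from 9 to 16. ASCRP4007838 had 11530, 31046 and 20896 on the controls and 11371, 27948 and 35064 on the CNV arrays, with ranks from 9 to 15. None of the 10 brightest fell below rank 16 on any array. The median distance between the best and the worst rank of a circRNA was 2 among these 10, 27.5 among the following 40 and 68 among the last 50.

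Of the 100 circRNAs, 61 were among the 100 highest on all 6 arrays. Another 13 were so on 5 arrays, 16 on 4 arrays and 10 on 3 or fewer. The 61 held 40.1% to 43.6% of the circRNA signal by themselves. By array, 82, 87 and 84 of the 100 were among the 100 highest across controls 1 to 3 and 86, 88 and 94 across CNV 1 to 3. Conversely, 46 circRNAs outside the 100 were among the 100 highest on at least 1 array, 22 of them on exactly 1 and 7 on 3 or more.

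An array whose own values took no part in the choice gave nearly the same picture. The normalization of the deposited value table is not given, so that array may still have shaped the values of the others. When the 100 were chosen again from the other 5 arrays, 79, 81 and 83 of them were among the 100 highest of the array left out with controls 1 to 3 and 85, 86 and 92 with CNV 1 to 3. Their share of the circRNA signal on that array was 43.8% to 47.3%. The lists chosen on 5 arrays shared 94 to 99 circRNAs with the list of all 6. Choosing by the mean scaled processed signal in place of the deposited value table shared 97.

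The least stable rank belonged to ASCRP4000534, which also had the widest spread within groups. Its processed signal was 1274, 6375 and 2123 across controls 1 to 3 and 750, 6659 and 12400 across CNV 1 to 3. It was at rank 22 on CNV 3 and at rank 325 on CNV 1, and after scaling its brightest array was 9.97-fold above its dimmest. Control 1, control 3 and CNV 1 were the low arrays, so the groups overlapped fully. At the other end stood ASCRP4005515, with 4183, 5322 and 5241 on the controls, 4199, 7420 and 7100 on the CNV arrays and ranks from 32 to 47. After scaling, its 6 values lay within 1.23-fold of each other.

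Ranks among the 100 agreed most between control 1 and CNV 1. Across the 100 circRNAs, which are probes on the same arrays and not replicates, the Spearman correlation of that pair was 0.92. It was 0.62 to 0.81 between controls, 0.65 to 0.88 between CNV arrays and 0.62 to 0.92 between arrays of different groups. The range between groups thus covered the whole range within groups. Over all 14236 circRNA probes, whose range of brightness is far wider, the correlations were 0.92 to 0.98.

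Brightness brought no smaller spread, except at the very top. The spread of a circRNA was measured as the residual standard deviation (SD) of its scaled log2 signal within groups, with 4 residual degrees of freedom. Its median was 0.35 log2 units over the 100, or 1.28-fold. It was 0.31 over the next 900 circRNAs by brightness, 0.30 over the next 6000 and 0.35 over the remaining 6358 that were well above background on at least 3 arrays. The upper quartile was 0.60 among the 100, against 0.51, 0.45 and 0.49 in those 3 ranges. The scanner software's error estimate for the typical spot of the 100 was 10% of the signal, alike on every array. For the other circRNA probes it was 10.3% to 10.9%. This estimate is given for each spot on its own array and does not measure the spread between arrays.

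The 10 brightest had a lower median SD than the rest of the 100, but not all of the 10 were low. Their median SD was 0.19, or 1.14-fold, against 0.37 for the other 90. The SDs of the 6 brightest lay between 0.11, for ASCRP4006342, and 0.22, for ASCRP4013042, and ASCRP4004672 at rank 8 had 0.17. ASCRP4007626, ASCRP4008132 and ASCRP4007838, at ranks 7, 9 and 10, had 0.46, 0.60 and 0.47, above the median of the other 90. The smallest SD of the 100 was 0.08, for ASCRP4005515, and the largest 1.41, for ASCRP4000534. The 61 circRNAs that were among the 100 highest everywhere had a median SD of 0.29, and the other 39 one of 0.52, a difference that their choice by rank on the same arrays favours.

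The order of these spreads differed with the processing of the signal. In the authors' deposited value table, which followed the unsubtracted spot medians, the median SD was 0.34 over the 100, 0.29 over the next 900, 0.25 over the next 6000 and 0.174 over the rest, so the median rose with brightness over these ranges. Within the 100 it was low at the top, at 0.167 over the 10 brightest, below the 0.174 of that dimmest range. In that table ASCRP4013042 and ASCRP4012684, at ranks 4 and 5 on all 6 arrays, had a difference of 0 between the group means. Where a normalization gives equal ranks equal values, such circRNAs can show almost no spread. The low value at the top of that table therefore cannot be separated from the stable ranks there. With normexp correction, which adds a constant to every spot, and quantile normalization the median SD was 0.30, 0.27, 0.19 and 0.09. Without control 1 and CNV 1 it was 0.25 over the 100, 0.23 over the next 900, 0.23 over the next 6000 and 0.27 over the rest.

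Most of the wide spreads came with a low signal on control 1, CNV 1 or control 3. Over all 13358 circRNAs well above background on at least 3 arrays the upper quartile of the SD was 0.48. The SD was over 0.5 in 34 of the 100. Of these, 17 were lowest on control 1 or CNV 1, and their median scaled log2 signal was 4.16, 5.75 and 4.96 across controls 1 to 3 and 4.34, 5.68 and 5.65 across CNV 1 to 3. In 10 of the 17 control 2 was the highest array. A further 10 were lowest on control 3, at a median of 4.26 there, where controls 1 and 2 were at 5.86 and 5.57 and CNV 1 to 3 at 5.22, 5.28 and 5.69. The remaining 7 were lowest on control 2, CNV 2 or CNV 3. The low arrays of the 17 thus came from both groups, and the low array of the 10 was a control. Of the 13358 circRNAs at any SD, 19.6%, 16.8% and 14.1% were lowest on control 1, CNV 1 and control 3. Control 2 was the highest array in 18.7% of them.

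No circRNA among the 100 passed the test of CNV against control when the 6 arrays counted equally. The mean over all 6 arrays, which chose the 100, does not use this difference. The fit took all 13358 circRNAs well above background on at least 3 arrays, and p-values were adjusted over all of them. Past an adjusted p of 0.05 in limma were 0 of the 100 and 0 of the 13358 (0%), and the smallest adjusted p of the 100 was 0.765. An unadjusted p under 0.05 was reached by 8 of the 100, against 5.77% of all circRNAs tested. Of these 8, 7 were higher in CNV (2.81% of all tested) and 1 was lower (2.96%). Their differences were 1.45-fold to 1.61-fold for the 7 and 1.99-fold for the 1. The count fell to 2 when control 2, control 3, CNV 2 or CNV 3 was left out, where 2.36% to 4.04% of all circRNAs passed, and was 10 without control 1, where 14.8% did, and 13 without CNV 1, where 8.95% did.

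The weight given to each array decided this call. With limma's array weights estimated by restricted maximum likelihood (REML), 48 of the 100 passed an adjusted p of 0.05, 45 of them higher and 3 lower in CNV, against 26.4% of all circRNAs tested. These weights gave control 3 and CNV 3 together 87.6% of the total, so the result rested mainly on 1 array per group. Among the 100, control 3 had the lowest and CNV 3 the highest median scaled log2 signal. With weights estimated gene by gene, the count past an adjusted p of 0.05 was 0, whether probes entered in file order or reversed.

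The groups did not overlap in 12 of the 100. All 3 CNV arrays were above all 3 controls in 9, against 7.10% of all circRNAs tested, and below them in 3, against 4.24%. These shares are near those of all circRNAs. With 2 arrays against 3, the count was 36 without control 1 (37.9% of all tested) and 39 without CNV 1 (26.9%). At least 1.5-fold higher in CNV were 5 of the 100 (4.89% of all tested) and at least 1.5-fold lower 3 (7.58%). The 95% confidence interval of a difference extended by a median of 0.63 log2 units, or 1.55-fold, to either side over the 100, so that for the typical circRNA a difference smaller than this was not distinguishable from 0.

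In sign, 77 of the 100 had a higher mean in CNV, against 57.2% of all circRNAs tested. The median log2 difference was 0.20 over the 100 and 0.05 over all tested. It was 0.02 over the 10 brightest and 0.21 over the other 90, and 0.11, 0.05 and 0.04 over the 3 dimmer ranges. The circRNAs share their arrays and are not independent. The median scaled log2 signal of the 100 was 5.27, 5.46 and 5.0 across controls 1 to 3 and 5.09, 5.44 and 5.71 across CNV 1 to 3, so the groups overlapped and CNV 3, the array of highest overall brightness, was the highest. CNV 3 was the highest array in 25 of the 100 and the lowest in 1, against 11.9% and 6.06% of all tested. The part of overall brightness in this shift was not tested.

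The balance of signs moved with the scaling and with single arrays. With quantile normalization 65 of the 100 were higher in CNV (55.4% of all tested) with a median of 0.10, and of 2 circRNAs at an unadjusted p under 0.05, 1 was higher and 1 lower. With normexp and quantile normalization 69 were higher (53.7% of all tested), with the smallest median of all processings tried, 0.06. With median centring 73 were higher (52.4%), with a median of 0.17, and with the authors' values 73 as well (53.3%), with a median of 0.13. Without CNV 3 there were 63 (55.6%), with a median of 0.11. Without control 1 and CNV 1 there were 78 (59.2%), with a median of 0.35 against 0.11 over all tested. In slide row 1, which held the controls and CNV 2, CNV 2 alone was higher than the control mean in 65 (56.5% of all tested), with a median of 0.23.

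The 10 brightest circRNAs had small estimated differences between the groups, some of them with wide intervals. Their log2 differences, CNV minus control, lay between -0.25, for ASCRP4007626, and 0.25, for ASCRP4008132, and 0 of the 10 had an unadjusted p under 0.05 or groups without overlap. With array weights by REML 1 of the 10 passed an adjusted p of 0.05, against 26.4% of all circRNAs tested. It was ASCRP4008132, at a difference of 1.24 and a limma adjusted p of 0.0150. For ASCRP4006342 the difference was 0.02 ± 0.20 (SE, n = 3 per group; limma adjusted p = 0.984), with a 95% confidence interval from -0.43 to 0.48. Over the 6 brightest the intervals stayed between -0.65 and 0.55. For the rest of the 10 they ran from -0.99 to 0.50 for ASCRP4007626 and from -0.30 to 0.67 for ASCRP4004672. They ran from -0.65 to 1.16 for ASCRP4008132 and from -0.73 to 0.77 for ASCRP4007838, so larger differences in these were not excluded.

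The largest differences among circRNAs whose groups did not overlap were found further down. ASCRP4007518, at rank 24 of the 100, had a scaled log2 signal of 5.91, 5.49 and 5.92 across controls 1 to 3 and 6.05, 6.98 and 6.35 across CNV 1 to 3. CNV 1 exceeded the highest control only narrowly. The difference was 0.69 ± 0.29 (SE, n = 3 per group), or 1.61-fold, with a limma adjusted p of 0.765. ASCRP4008435 had 4.34, 4.26 and 4.31 on the controls, which were very close together, and 4.66, 5.46 and 4.86 on the CNV arrays. Its difference was 0.69 ± 0.25 (SE; limma adjusted p = 0.765). In both, CNV 2 was the highest array.

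In the other direction, ASCRP4009692, at rank 15, had 7.53, 7.38 and 7.41 on the controls and 7.01, 6.11 and 6.22 on the CNV arrays. The controls differed little among themselves, and CNV 1 was the CNV array nearest to them. The difference was -0.99 ± 0.27 (SE, n = 3 per group), a signal 1.99-fold higher in controls, with a limma adjusted p of 0.765 and the smallest unadjusted p of the 100. Its processed signal was 14254, 18015 and 17542 on the controls and 10024, 8484 and 9637 on the CNV arrays, so that the groups did not overlap before scaling either. ASCRP4001973 had 4.60, 4.67 and 4.77 on the controls and 4.46, 3.67 and 4.41 on the CNV arrays. Its difference of -0.50 ± 0.26 (SE; limma adjusted p = 0.765) rested on CNV 2. The unscaled signal of 2743 on CNV 3 lay above those of controls 1 and 2, at 1872 and 2741.

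ASCRP4009692 kept its sign under every alternative tried, from -1.41 in the authors' deposited table to -0.82, with adjusted p from 0.0106 to 1.00. Without control 1 and CNV 1 it was the circRNA of the smallest adjusted p among the 100, at 0.167. The 2 circRNAs higher in CNV also kept their sign, from 0.43 to 1.20 for ASCRP4007518 and from 0.45 to 1.15 for ASCRP4008435. With array weights by REML, ASCRP4009692 had a limma adjusted p of 0.0106, ASCRP4008435 of 0.0192 and ASCRP4007518 of 0.0396, and ASCRP4001973 did not pass, at 0.0735. None of these 4 circRNAs passed an adjusted p of 0.05 under any other alternative.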

How the data were processed

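Per the labels' protocols, total RNA came from Trizol extraction and was enriched for circRNA by RNase R, with Cy3 as the dye. In the deposited scanner tables, Feature Extraction 11.0.1.1 had subtracted the background from each spot's intensity, per the file headers. The authors' deposited value table is on a log2 scale, with a normalization not given in the sources used here. Across probes it correlated at 0.998 to 1.00 with log2 of the unsubtracted spot medians and at 0.964 to 0.969 with log2 of the processed signal of the same array, and its column medians were 5.90 to 5.92. It therefore follows spot medians without background subtraction, on a log2 scale, and is not centred on 0.

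That table chose the 100 circRNAs. Shares, ranks and rank correlations used the processed signal without scaling. Group differences, spreads and scaled signals used log2 processed signals minus each array's 75th percentile over non-control probes, except where another processing is named. Outlier spots by the scanner's flags (1 circRNA spot) were dropped, and repeated spots were averaged. A circRNA was tested when well above background on at least 3 arrays (13358 of 14236, all 100 included). CNV and control arrays were compared by limma 3.58.1 under R 4.3.3, using lmFit and eBayes and no covariates, and p-values were adjusted after Benjamini-Hochberg over all tested circRNAs. The script was tested on simulated data. The number of arrays limits the precision.

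All 6 arrays had the same scan and scan time per the file headers. CNV 1 and CNV 3 lay in slide row 2, the other 4 arrays in slide row 1. Arrays of the same replicate number deviated together from their group means, with correlations of 0.41, 0.18 and 0.17 for pairs 1 to 3 over all tested circRNAs. All exceeded 0.1, so the replicate block was run as an alternative. Control 2 correlated better with CNV 3, at 0.32, so the pairing is uncertain. Over the described circRNAs of highest signal alone, the correlations of pairs 1 to 3 were 0.47, 0.31 and -0.16. The arrays of pair 3 thus did not deviate together there, and control 2 with CNV 3 was at 0.57.

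The circRNAs, gene lists and alternatives were chosen with earlier results of these data known. The circRNAs named are the 10 brightest, those on either side of the limit, those of smallest and largest spread and widest rank range, and, without overlap between groups, the 2 of largest difference in each direction. Of the array's 50 mRNA probes 44 were named by RefSeq accession (GRCm38.p6). Background correction, normalization, filters, block, slide row, array weights, left-out arrays and the choice and number of circRNAs were varied.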

Additional observations from a re-analysis of the deposited data

How the results depend on the processing

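The alternatives of normexp on spot medians, spot medians summed, array weights by REML or with probes in reverse order, and without control 1 and CNV 1 were chosen after seeing the data. Alternatives on spot means were not run, since that column was not among those used here, and leaving out saturated circRNAs changed nothing because 0 were saturated. Why values moved was not tested. Past an adjusted p of 0.05 were 0 of the 100 circRNAs under 23 alternatives, with smallest adjusted p from 0.167 to 1.00, and 48 with array weights by REML (26.4% of all tested). The count of 8 at an unadjusted p under 0.05 became 2 with quantile normalization (6.57% of all tested), 14 with slide row as a term (13.1%) and 13 within slide row 1 (10.8%), both of which compare CNV 2 alone with the controls. It became 17 without control 1 and CNV 1 (16.7%), 31 with array weights gene by gene (19.1%), where CNV 3 and control 3 held 36.1% and 32.3% of the weight, 33 with the probes in reverse order (19.2%) and 62 with array weights by REML (42.7%). The gene by gene method, limma's default where a value is missing, ran because 1 of the tested circRNAs lacked a value on an array. Without array weights, 5 of the 50 highest and 15 of the 200 highest had an unadjusted p under 0.05, against 5.77% of all tested. With 1 array left out the count of 8 ran from 2 to 13, against 2.36% to 14.8% of all tested. The replicate block gave 6 (9.88% of all tested), 4 of them higher in CNV, and left the count past an adjusted p of 0.05 at 0. The count of 12 without overlap became 58 without control 1 and CNV 1, where 53.1% of all tested had none. Among the 200 highest it was 20, against 11.3% of all tested. With 1 array left out, which compares 2 arrays with 3, it ran from 13 to 39, against 17.0% to 37.9% of all tested. The mean share of 46.6% was 41.2% for the 50 highest, 52.9% for the 200 highest and 42.0% from spot medians, and 43.8% to 47.3% on an array left out of the choice. The median spread and the count among each array's 100 highest stayed within 1.5 times. The median difference of 0.20 stayed above 0 under every alternative but changed more in size. It ran from 0.06 with normexp and quantile normalization to 0.35 without control 1 and CNV 1.

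Small differences of single circRNAs turned sign. With slide row as a term and within slide row 1 alike, they were -0.15 for ASCRP4004008, -0.0432 for ASCRP4006342 and -0.12 for ASCRP4011502. ASCRP4004008 was at -0.0586 with normexp and quantile normalization and at -0.061 in the authors' table, and ASCRP4006342 at -0.0125 with median centring. ASCRP4007838 was at -0.0436 with quantile normalization, -0.016 with median centring and -0.0619 in the authors' table, ASCRP4005515 at -0.0797 with quantile normalization and ASCRP4007626 at 0.0076 with array weights, 0.0075 with the probes in reverse order and 0.1942 by REML. By REML ASCRP4000534, of widest spread, passed at 1.86 (limma adjusted p = 0.0282). With 1 array left out, the difference ran from -0.0793 to 0.13 for ASCRP4004008, from -0.0323 to 0.0913 for ASCRP4006342 and from -0.19 to 0.0208 for ASCRP4006710. It ran from -0.22 to 0.0011 for ASCRP4012684, from -0.0343 to 0.16 for ASCRP4011502, from -0.46 to 0.12 for ASCRP4007626, from -0.16 to 0.55 for ASCRP4008132 and from -0.21 to 0.28 for ASCRP4007838. It ran from -0.25 to 1.41 for ASCRP4000534, from -0.30 to 0.62 for ASCRP4005425 and from -0.074 to 0.63 for ASCRP4013749.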
